A study of Homo sapiens with 40 samples.

Results

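The genes described here are 10 members of the NF-kB system: the kinase scaffold IKBKG, the inhibitor NFKBIA, the subunit genes NFKB1, NFKB2, REL and RELB, the feedback enzyme TNFAIP3, and BIRC3, TRAF1 and CD40. They were chosen by name, as every probe whose gene symbol in the array's probe-to-gene table was one of the 10. The table listed 39 probes for 9 of them, out of 15246 probes on the array and 4604 named genes. NFKB2 had 7 probes, TNFAIP3 6, NFKBIA, TRAF1 and CD40 5 each, REL 4, NFKB1 and RELB 3 each, and IKBKG 1. BIRC3 had 0 listed probes, so no log2 ratio is given for it. All 40 arrays were 2-colour hybridisations on the lymphochip, a cDNA array of lymphoid genes, and each compared 2 RNAs of transduced cell lines. The lines were the multiple myeloma lines SKMM1, H929 and KMS12 and, as the study's control, the lymphoma lines OCI-Ly7 and OCI-Ly19. Every line had been transduced with a retroviral hairpin against CASP10 and selected with puromycin. The hairpin was shCasp10-2 in all 5 lines, and shCasp10-3 was also used in H929 and KMS12. The Cy5 channel held RNA of cells given 20 ng/ml doxycycline for 24 to 120 hours (days 1 to 5). The Cy3 channel held RNA of cells with the same hairpin, not induced, of the same day. On 4 further SKMM1 arrays the Cy3 RNA came from induced cells with the control hairpin shCtrl. Each value is a log2 ratio of the channels, taken as induced over reference, and a positive value means more signal in induced cells. A ratio holds no level, so genes were not ranked by abundance and the labelled cell types could not be checked against markers by level.

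NF-kB is a family of dimeric transcription factors. In resting cells inhibitors such as the product of NFKBIA (IkB-alpha) hold the dimers in the cytoplasm. The IKK complex, whose scaffold NEMO is the product of IKBKG, marks these inhibitors for degradation when receptors of the tumour necrosis factor family or antigen receptors signal. A second, noncanonical branch processes the NFKB2 precursor p100 and yields p52 bound to RELB. NFKBIA, TNFAIP3, BIRC3, TRAF1 and several subunit genes are themselves NF-kB targets. Multiple myeloma, a cancer of plasma cells, often carries lesions that activate the pathway.

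The regions before the start sites of the members were searched for the NF-kB consensus motif, a string of 10 bases matched on both strands with degenerate positions, in the 250 bases before each start site that RefSeq lists on GRCh38.p14. The motif was found in 6 of the 8 members with a promoter entry, NFKBIA, NFKB1, NFKB2, REL, TNFAIP3 and BIRC3, and in 7 of their 16 windows. It was found in 9.96% of all 35116 windows, and 11.8% of 27305 genes had it in a window. The 4 IKBKG windows and the 3 TRAF1 windows had no match, which says only that these letters are not there. The 3 windows below are shown because REL and TNFAIP3 carry the SKMM1 values described further on and NFKBIA is the textbook target against which they are read. Capitals mark the motif, which lay 81 bases before the start site in NFKBIA, 67 and 55 bases before it in TNFAIP3, and 47 bases before it in REL, where a second match overlapped the first by all but 1 base.
NFKBIA, chr14:35404750-35404999, minus strand: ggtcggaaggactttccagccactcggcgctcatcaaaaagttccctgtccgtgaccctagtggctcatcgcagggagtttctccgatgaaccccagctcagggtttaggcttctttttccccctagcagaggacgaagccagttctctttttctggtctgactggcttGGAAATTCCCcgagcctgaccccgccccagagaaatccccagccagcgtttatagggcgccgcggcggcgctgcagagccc
TNFAIP3, chr6:137867009-137867258, plus strand: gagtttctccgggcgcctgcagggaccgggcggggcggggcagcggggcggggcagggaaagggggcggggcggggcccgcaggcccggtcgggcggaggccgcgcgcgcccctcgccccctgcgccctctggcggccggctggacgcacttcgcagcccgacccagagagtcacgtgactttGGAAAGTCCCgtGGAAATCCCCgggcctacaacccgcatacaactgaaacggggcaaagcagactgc
REL, chr2:60881324-60881573, plus strand: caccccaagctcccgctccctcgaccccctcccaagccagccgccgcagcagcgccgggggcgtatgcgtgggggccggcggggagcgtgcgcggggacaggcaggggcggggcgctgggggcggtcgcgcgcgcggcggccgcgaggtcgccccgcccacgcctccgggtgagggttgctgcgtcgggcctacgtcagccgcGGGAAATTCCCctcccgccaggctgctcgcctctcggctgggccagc
A match is a description of the sequence and not a measured binding site.

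The arrays differed in spread. On 12 arrays, called wide here, more than 10% of all probes lay beyond 3 in size, 10.3% to 46.4% of them, against 0.026% to 8.58% on the other 28. The wide arrays were 11 myeloma arrays, among them all 3 of days 2 to 4 of SKMM1 repeat 2, and day 3 of OCI-Ly7. Of the arrays used here, 3 have no repeat number in their label (day 1 of SKMM1 and days 1 and 5 of H929), and the SKMM1 arrays of day 5 are labelled repeat 1, which is wide, and repeat 2, which is not. By database number the wide one falls in the run of repeat 2 and the other in that of repeat 3. Values of days 1 and 5 are therefore given apart from the repeats, and the fits below used days 2 to 4 by the labelled numbers. Many far values sat on whole-number steps, at the log2 of a whole number from the array's own offset. This held for 76.3% of far values on wide arrays and 75.5% on the others, against 8.48% and 4.32% when the offset was shifted. Of the 1560 member values, 104 lay beyond 3, of which 90 were on wide arrays, 88 were below 0 and 74 were on such steps. Some arrays also ran against one another. Over all probes Pearson's r was under -0.3 for 87 of 780 pairs of arrays and for 9 of the 378 pairs that held no wide array. The median r between SKMM1 repeats 2 and 3, which the labels separate only by number, was -0.33 on days 2 to 4. Within SKMM1, repeat 1 was at 0.37 with repeat 3 and at -0.31 with repeat 2. The control hairpin arrays were at 0.31 and -0.31 with them. KMS12 shCasp10-2 was at 0.35 with repeat 2. It was at -0.30, -0.28 and -0.27 with repeat 3, repeat 1 and the control hairpin arrays. OCI-Ly7 was at -0.31 with repeat 2, and at 0.46, 0.34 and 0.34 with those 3 in the same order. These correlations do not settle the direction of repeats 2 and 3, and values with their sign turned are given beside the results. Repeat 1 and the control hairpin arrays were at 0.56 and have adjoining database numbers, so they may share induced RNA. The part of these features in the member values was not tested. CASP10 itself, the target of the hairpins, was below 0 on 19 of the 21 myeloma arrays that were not wide (lowest -0.89, median -0.30, highest 0.13), and its adjusted p was 0.17 (limma). These were 7 of 7 SKMM1, 6 of 8 H929 and 6 of 6 KMS12 arrays. Against the control hairpin CASP10 was at -0.43, -0.74, -0.68 and -0.57 on days 1 to 4. In lymphoma it was at 2.04 and 1.497 on days 3 and 4 of OCI-Ly7, day 3 being wide, and at 0.12 and -0.24 on those of OCI-Ly19. Its fitted value in lymphoma was 0.55 (adjusted p = 0.109), so the fits of myeloma and of lymphoma did not call CASP10 lower.

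**Figure D1:**
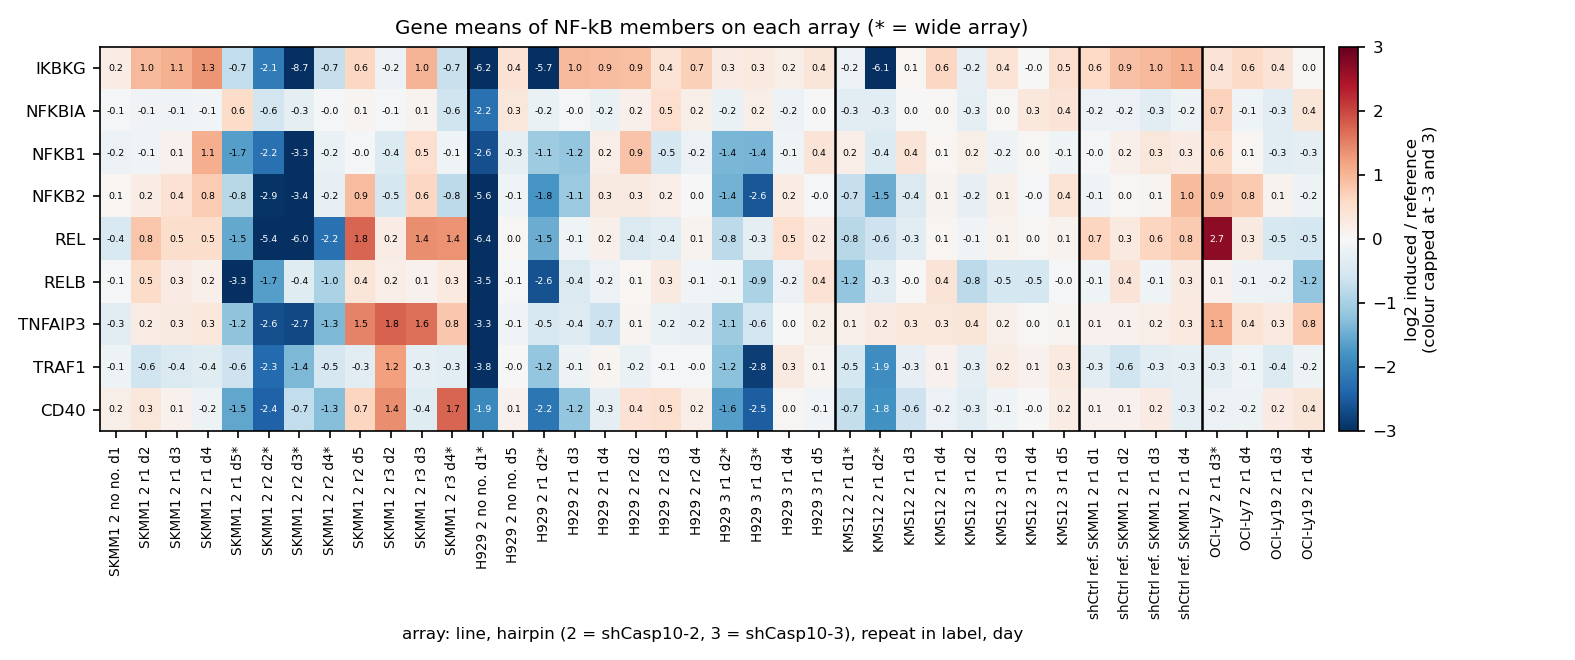
Mean log2 ratio (induced over reference) of each measured gene on each of the 40 arrays, by line, hairpin, repeat and day, with wide arrays starred and colours capped at -3 and 3. The deep blue columns are starred arrays, and without them the IKBKG row is above 0 on 18 of 21 myeloma arrays.

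The myeloma response asked which genes differ between induced and uninduced myeloma cells. The days of 1 line, hairpin and repeat were taken as 1 time course, 8 in myeloma, and course means over days 2 to 4 were fitted with limma across all 9681 features. With all arrays, 0% of features and 0 of the 9 members were called at an adjusted p under 0.05, while 542 features had an unadjusted p under 0.05. All 9 members were below 0 in that fit, with -0.62 for IKBKG at the low end and -0.06 for NFKBIA at the high end. Only 18.7% of all features were above 0 there, with a median of -0.27 against -0.46 over the members. With the sign of SKMM1 repeat 2 turned, 5 of them were still below 0 and IKBKG, NFKB1, REL and TNFAIP3 were at 0.23, 0.08, 0.54 and 0.38. Without the wide arrays the picture differed: IKBKG and REL were at 0.52 and 0.25, and 0 features were called. A fit of the single arrays that were not wide, with arrays of a course treated as correlated (16 myeloma arrays of 7 courses), called 1.71% of features, 45 higher (0.465%) and 121 lower (1.25%). IKBKG was the member among them, and the median over the 9 members was 0.05 against 0.01 over all features. The limma values below come from this fit of single arrays, which is an alternative to the fit of course means. Course means called 0 features in myeloma and SKMM1 with or without the wide arrays, and the lowest adjusted p without them was 0.334 in myeloma and 0.262 in SKMM1. The calls named below therefore hold under that choice only.

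IKBKG, read by probe 29666_1, encodes the scaffold of the IKK complex. In SKMM1 its log2 ratio was 0.22 on day 1 and 0.96, 1.08 and 1.33 on days 2 to 4 of repeat 1, and against the control hairpin it was 0.60, 0.87, 0.98 and 1.06 on days 1 to 4. In SKMM1 repeat 3 it was -0.16, 1.03 and -0.68 on days 2 to 4, the day 4 array being wide. In repeat 2, where these 3 arrays are wide, it was -2.09, -8.73 and -0.69. The day 5 arrays were at -0.75 (labelled repeat 1, wide) and 0.63 (labelled repeat 2). Repeat 1 was above 0 and repeat 2 below 0 on each of days 2 to 4, and repeat 3 was above 0 on day 3. In H929 all 8 arrays that were not wide were above 0 (lowest 0.18, median 0.58, highest 0.96), and in KMS12 4 of 6 were (lowest -0.24, median 0.23, highest 0.61). The lowest values of the gene were -8.73, -6.17, -6.05 and -5.70, all on wide arrays, and the probe sat on a whole-number step on 3 of the 40 arrays. Over the 7 myeloma courses without wide arrays the mean was 0.54 ± 0.40 (SD, n = 7 courses), above 0 in 7 of 7, while over all 8 courses it was -0.59 ± 1.63 (SD, n = 8 courses). IKBKG rose in the myeloma response of single arrays, by 0.55 (SE 0.12, adjusted p = 0.0312, limma), and in SKMM1, by 0.81 (SE 0.22, adjusted p = 0.0418, limma), where 4.98% of features were called. The myeloma call was lost without H929 shCasp10-2 repeat 1 (adjusted p = 0.119), either KMS12 course (0.144 and 0.168) or SKMM1 repeat 1 (0.108), and with the sign of SKMM1 repeat 3 turned (0.519). The SKMM1 call held in 3 of the 10 fits that each left out 1 course, those without H929 shCasp10-3 or either lymphoma line, and was furthest off without repeat 1 (adjusted p = 0.439). Against the control hairpin the value was 0.97 (SE 0.29, adjusted p = 0.0754, limma), in H929 it was 0.66 (adjusted p = 0.888), in KMS12 0.18 (0.917) and in lymphoma 0.35 (0.396). IKBKG has a near-identical partial copy in the genome, so the cDNA probe may read both.

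NFKBIA, the IkB-alpha gene, lay near 0 on most arrays. The mean of its 5 probes in SKMM1 was -0.06 on day 1 and -0.11, -0.12 and -0.08 on days 2 to 4 of repeat 1. In repeat 3 it was -0.05, 0.10 and -0.59 on days 2 to 4, and on day 5 it was 0.56 (labelled repeat 1) and 0.07 (labelled repeat 2). On the 21 myeloma arrays that were not wide it lay between -0.29 and 0.50 with a median of 0.0066, above 0 on 12 and below 0 on 9. In SKMM1 repeat 2, where REL reached -6.05, NFKBIA was at -0.55, -0.26 and -0.03 on days 2 to 4, and the one far value of the gene mean was -2.23 on the wide day 1 array of H929. The course mean was -0.07 ± 0.17 over all courses (SD, n = 8 courses) and -0.0062 ± 0.15 without wide arrays (SD, n = 7 courses), and limma gave 0.01 (SE 0.08, adjusted p = 0.986) in myeloma. The SDs of NFKBIA were the lowest among the 9 members in both settings. Against the control hairpin all 4 arrays were below 0, at -0.17, -0.18, -0.32 and -0.16 on days 1 to 4, with an adjusted p of 0.614 (limma).

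TNFAIP3 encodes A20, a ubiquitin-editing enzyme that ends NF-kB signalling. Its 6 probes averaged -0.31 on day 1 of SKMM1 and 0.23, 0.26 and 0.32 on days 2 to 4 of repeat 1. In repeat 3 they averaged 1.77, 1.64 and 0.81 on days 2 to 4, the day 4 array being wide. Against the control hairpin the means were 0.12, 0.14, 0.19 and 0.29 on days 1 to 4. In repeat 2 they were -2.63, -2.70 and -1.34 on days 2 to 4, all on wide arrays. On day 5 they were -1.22 (labelled repeat 1, wide) and 1.48 (labelled repeat 2). The 3 arrays of repeat 3 and the day 5 array labelled repeat 2 thus lay above the other 8 induced over uninduced SKMM1 arrays, and repeat 2 and the other day 5 array lay below the rest. TNFAIP3 rose in SKMM1 in the fit of single arrays, by 0.92 (SE 0.21, adjusted p = 0.0228, limma). Without repeat 3 the value was 0.27 (adjusted p = 0.602), without repeat 1 it was 1.71, without KMS12 shCasp10-3 the adjusted p was 0.0545, and with the sign of repeat 3 turned it was -0.65. The size also depended on 1 probe. Probe 35299_1 was at 4.99, 4.93 and 4.37 on days 2 to 4 of repeat 3 and at 5.83 on the day 5 array labelled repeat 2, and all 4 values sat on whole-number steps. On days 2 to 4 of repeat 1 it was at 0.72, 0.56 and 0.57. With values on steps left out TNFAIP3 was at 0.41 (adjusted p = 0.0389, limma) and with the median of its probes at 0.58 (0.0307). Both settings called more features in SKMM1 than the 482 (4.98%) of the fit above, with 1329 when steps were left out. Of the other probes, 28986_1 and 28987_1 were above 0 on 5 of 5 SKMM1 arrays in the fit and 34761_1 on 2 of 5.

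In KMS12 TNFAIP3 was above 0 on all 8 arrays, wide ones included (lowest 0.035, median 0.20, highest 0.365). In H929 it was below 0 on 9 of 12 arrays, and on the 8 that were not wide the lowest was -0.66, the median -0.15 and the highest 0.18. Neither line's value passed the test, with 0.25 (SE 0.21, adjusted p = 0.845) in KMS12, where 0.0103% of features were called, and -0.23 (SE 0.18, adjusted p = 1) in H929, where 0% were. The difference of KMS12 minus H929, chosen after these values were seen, was 0.48 (SE 0.27, adjusted p = 1, limma). In lymphoma the gene was at 1.12 and 0.40 on days 3 and 4 of OCI-Ly7 and 0.29 and 0.78 on those of OCI-Ly19, and its fitted value of 0.48 had an adjusted p of 0.189 where 10.2% of features were called.

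**Figure D2:**
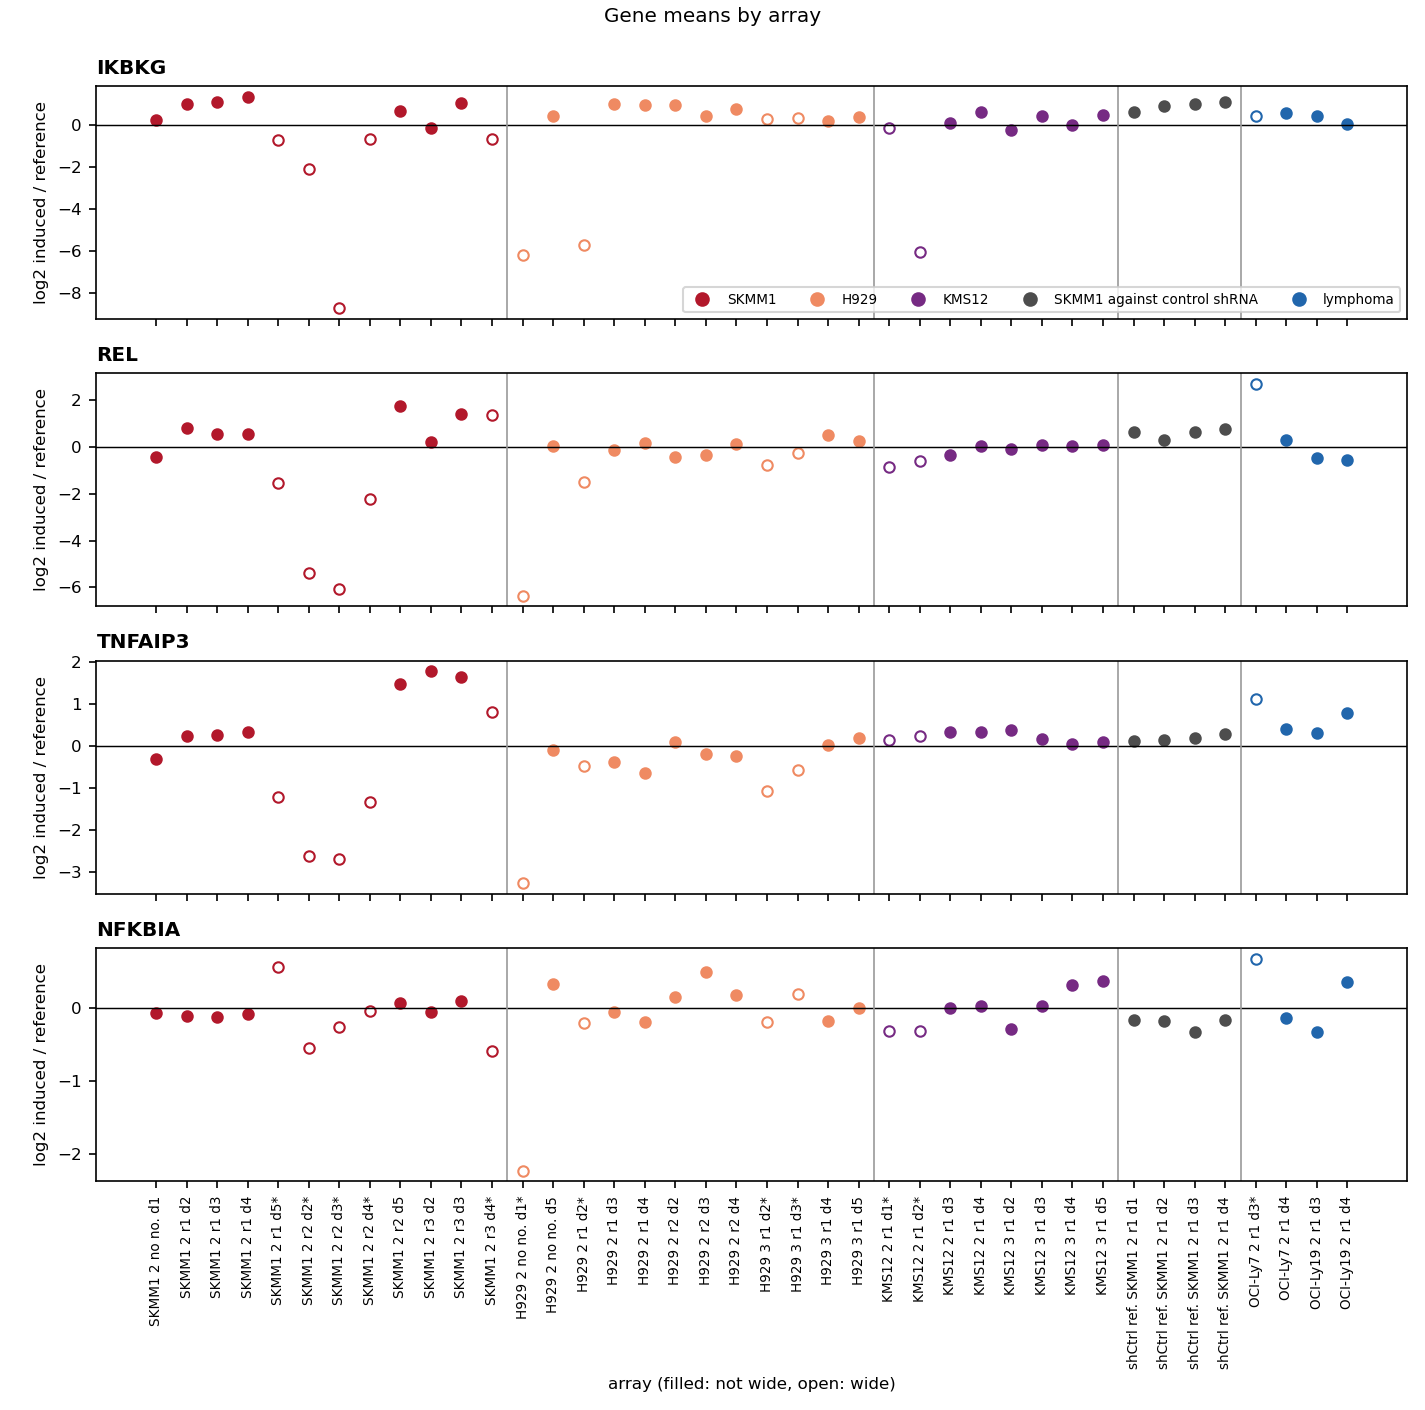
Mean log2 ratio (induced over reference) of IKBKG, REL, TNFAIP3 and NFKBIA on each array, coloured by line, with wide arrays as open circles; the vertical scales differ. IKBKG and REL reach below -6 on open circles, TNFAIP3 is above 0 on all 8 KMS12 arrays, and NFKBIA stays between -0.59 and 0.68 on every array but one.

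Among the subunit genes, REL encodes c-Rel, a transactivating subunit of lymphoid cells. The mean of its 4 probes was -0.45 on day 1 of SKMM1 and 0.83, 0.54 and 0.54 on days 2 to 4 of repeat 1. In repeat 3 it was 0.23, 1.39 and 1.35 on days 2 to 4, the last on a wide array. Against the control hairpin it was 0.65, 0.30, 0.64 and 0.78 on days 1 to 4. In repeat 2 it was -5.38, -6.05 and -2.24 on days 2 to 4, below 0 on every array. On day 5 it was -1.54 (labelled repeat 1, wide) and 1.76 (labelled repeat 2). REL rose in SKMM1 in the fit of single arrays, by 0.71 (SE 0.20, adjusted p = 0.0491, limma), which was at the edge of the threshold. With each course left out in turn the value was between 0.63 and 0.81, and the call held in 3 of 10 fits, those without H929 shCasp10-3 or either lymphoma line. The adjusted p was 0.102 without SKMM1 repeat 1 and 0.299 without repeat 3, and with the sign of repeat 3 turned the value was -0.04. Tested 1 by 1, probes 30700_1 (1.14, adjusted p = 0.0308) and 149009_1 (0.71, 0.0478) passed in SKMM1, where 4.53% of the 15246 probes were called higher, and all 4 probes were above 0 on 5 of 5 arrays in the fit. With a course left out at a time the call of 30700_1 held in 7 of 10 fits (highest adjusted p = 0.218, without SKMM1 repeat 3) and that of 149009_1 in 2 of 10 (highest adjusted p = 0.279, without SKMM1 repeat 1). Outside SKMM1 REL was near 0, with 0.02 (SE 0.18) in H929 and -0.05 (SE 0.20) in KMS12. Neither the difference of SKMM1 minus H929 (0.69, adjusted p = 0.316) nor that of SKMM1 minus KMS12 (0.77, adjusted p = 0.151) passed, so a difference between the lines was not shown. Of the 4 lymphoma arrays, the wide one of OCI-Ly7 day 3 stood at 2.69 and the others at 0.28, -0.49 and -0.54.

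NFKB2 encodes p100, the precursor of the noncanonical subunit p52. Its mean was 0.06 on day 1 of SKMM1 and 0.23, 0.44 and 0.77 on days 2 to 4 of repeat 1. Against the control hairpin it was -0.13, 0.03, 0.07 and 0.96, so that day 4 was highest in both. Repeat 3 did not run in that order, with -0.52, 0.62 and -0.78 on days 2 to 4, the day 4 array being wide. In repeat 2 it was -2.94, -3.37 and -0.25. The slope was carried by 3 of the 7 probes: probe 35251_1 was at -0.05 on day 1 and at 0.49, 1.37 and 2.67 on days 2 to 4 of repeat 1, and at 0.17, 0.77, 1.00 and 3.10 on days 1 to 4 against the control hairpin. Over the 40 arrays probe 35251_1 lay beyond 3 on 11 and sat on whole-number steps on 8. Probes 34508_1 and 35052_1 reached 1.32 and 1.58 on day 4 of repeat 1. Probe 17160_1 was below 0 on 5 of 5 SKMM1 arrays and on 17 of the 21 myeloma arrays that were not wide. For 17160_1 the median correlation with the others over the 28 arrays that were not wide was -0.10. NFKB2 was at 0.29 in SKMM1 (SE 0.27, adjusted p = 0.515, limma) and 0.05 in myeloma (adjusted p = 0.907).

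NFKB1 encodes p105, the precursor of p50. Its mean stood at -0.17 on day 1 of SKMM1 and at -0.11, 0.14 and 1.09 on days 2 to 4 of repeat 1, against a range of -1.16 to 1.09 with a median of -0.02 on the 21 myeloma arrays that were not wide. It was above 0 on 10 of them, and limma gave 0.06 (SE 0.16, adjusted p = 0.907). RELB encodes the partner of p52. It was above 0 on 6 of 7 SKMM1 arrays that were not wide (median 0.21) and on 1 of 6 KMS12 arrays (median -0.29). The fitted values were 0.25 in SKMM1 (adjusted p = 0.419), -0.26 in KMS12 (0.819) and -0.46 in lymphoma (0.191), and none passed. The difference of SKMM1 minus KMS12 for RELB was 0.51 (SE 0.28, adjusted p = 0.314, limma).

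TRAF1 encodes an adaptor of tumour necrosis factor receptors and is a standard NF-kB target. Its mean was below 0 on 11 of 12 SKMM1 arrays and on 4 of 4 against the control hairpin. In SKMM1 it was -0.15 on day 1 and -0.59, -0.43 and -0.37 on days 2 to 4 of repeat 1, and against the control hairpin -0.31, -0.60, -0.32 and -0.28. The exception was day 2 of repeat 3 at 1.24, where probe 26357_1 alone stood at 6.28, on a whole-number step. As a gene mean TRAF1 was at -0.04 in SKMM1 (adjusted p = 0.919, limma). Probe 15921_1 fell when probes were fitted 1 by 1, by 0.52 in SKMM1 (SE 0.14, adjusted p = 0.037, limma) and by 0.85 against the control hairpin (SE 0.19, adjusted p = 0.0142, limma), where 1.63% and 4.15% of the 15246 probes were called lower. With a course left out at a time the SKMM1 call held in 4 of 10 fits (highest adjusted p = 0.183). The call against the control hairpin held in 9 of 9 (highest 0.0342), but none of these fits leaves out its only course. Its value was -0.85 in each, so they cannot tell how far it depends on that course. The value against the control hairpin rests on 3 arrays of 1 course, so days stand in for repeats there. The probe was below 0 on 5 of 5 SKMM1 arrays of that fit and on 19 of the 21 myeloma arrays that were not wide, and among the 39 member probes it was the one called in both. In the fit of gene means against the control hairpin 3.46% of features and 0 of 9 members were called. The SKMM1 arrays of both kinds share the hairpin and line, and the Cy3 RNA differs. Repeat 1 and the control hairpin arrays may share induced RNA, as said above, so their values may not be independent.

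CD40 encodes a receptor of B cells that activates both branches of the pathway, and TRAF1 binds to its signalling complex. Its 5 probes fell into sets that did not move together. Probes 24601_1 and 33295_1 correlated at r = 0.96 over the 28 arrays and averaged -0.53 and -0.65 on the 5 SKMM1 arrays of the fit, with -2.27 and -2.31 on day 3 of repeat 3. Probe 27399_1 was above 0 on 5 of 5 SKMM1 arrays and at 1.13 in the fit (SE 0.37, adjusted p = 0.0654, limma), and probe 16913_1 was above 0 on 5 of 5 but sat on whole-number steps on 9 of the 40 arrays. The mean over the probes was 0.29 in SKMM1 (SE 0.28, adjusted p = 0.519), between probes that ran in opposite directions. No direction is given for the gene.

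**Figure D3:**
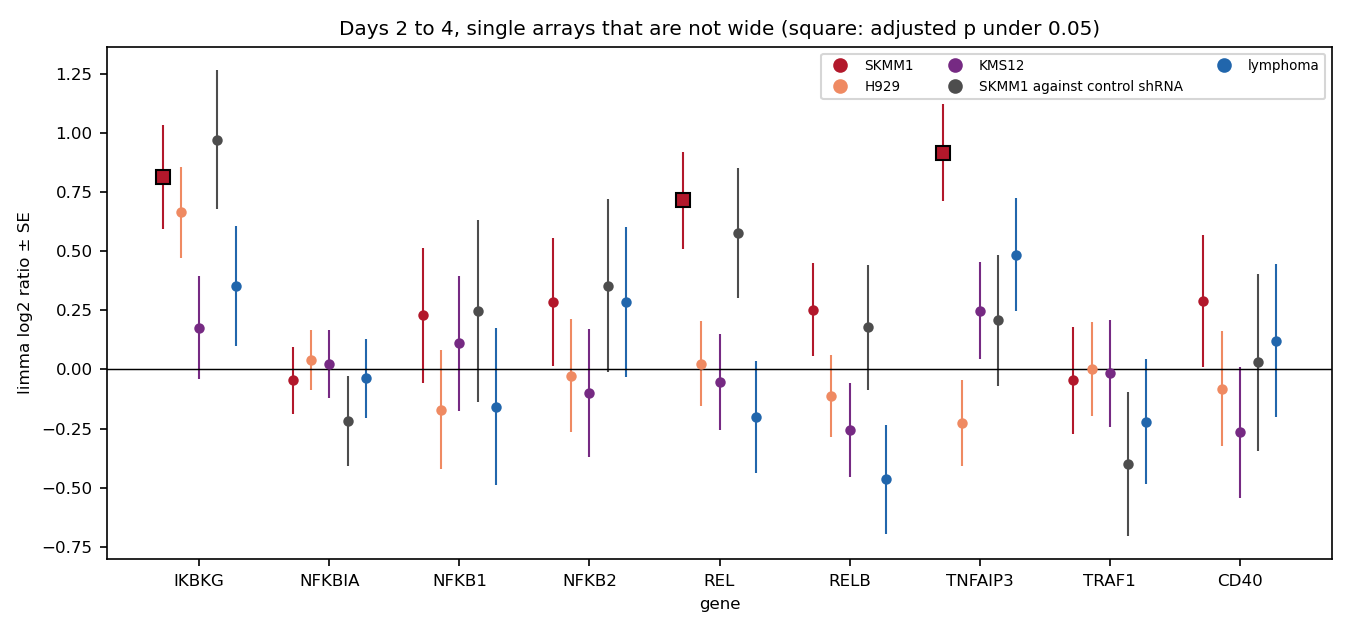
Fitted log2 ratio (limma, ± SE) of the 9 measured genes in SKMM1, H929 and KMS12 (induced over uninduced), SKMM1 against the control hairpin, and lymphoma, days 2 to 4, single arrays that were not wide; squares mark an adjusted p under 0.05. IKBKG, REL and TNFAIP3 in SKMM1 are the 3 squares.

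**Figure D4:**
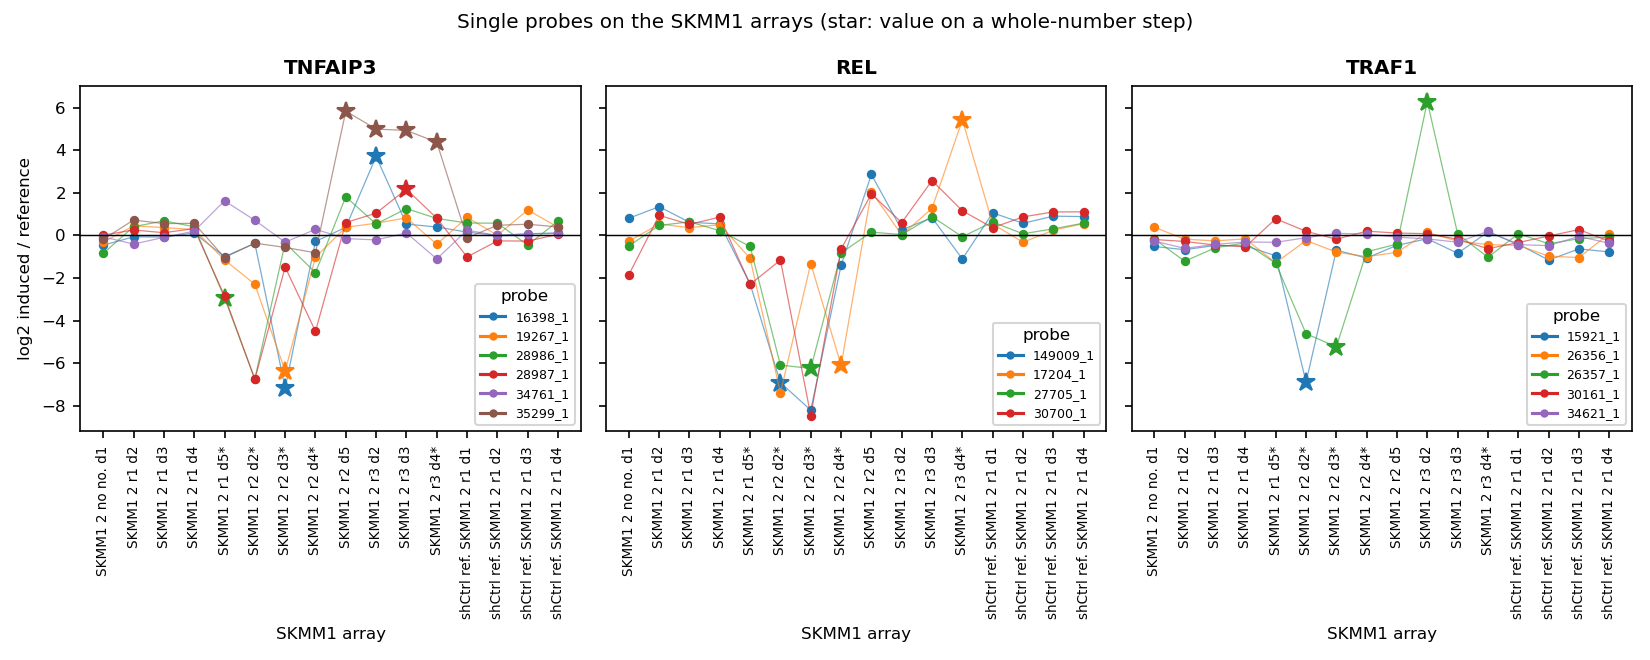
Log2 ratio of every probe of TNFAIP3, REL and TRAF1 on the 16 SKMM1 arrays, with values on whole-number steps as stars. Stars include 35299_1 of TNFAIP3 on the 3 arrays of repeat 3 and on day 5 labelled repeat 2, and 26357_1 of TRAF1 on day 2 of repeat 3.

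Of the 9 members, 3 were thus called in SKMM1, on arrays of repeats 1 and 3 alone, where 377 features were higher (3.89%) and 105 lower (1.08%). The median over the members was 0.29, against 0.14 over all features, of which 60.5% were above 0. In H929, KMS12, lymphoma and against the control hairpin 0 of 9 were called, and 462, 711, 2752 and 1686 features had an unadjusted p under 0.05. B cell markers were above 0 in SKMM1 for 4 of 4 measured genes (median 0.52) and T and NK cell markers below 0 for 5 of 6 (median -0.47), with 0 called in either list in SKMM1. No plasma cell or myeloid marker was called in SKMM1 either, and no shift of lineage is read from these lists. Elsewhere GNLY, a T and NK cell marker, fell by 0.97 against the control hairpin (adjusted p = 0.0481, limma), and XBP1, a plasma cell marker, fell by 0.78 in lymphoma (adjusted p = 0.0261, limma). Their part in the member values was not tested. The difference of myeloma minus lymphoma on days 3 and 4 called 0.0103% of features and 0 of 9 members, with IKBKG at 0.31 (adjusted p = 0.513) and TNFAIP3 at -0.22 (0.715). The difference of shCasp10-3 minus shCasp10-2 in H929 and KMS12 called 0% of features, with 376 at an unadjusted p under 0.05. IKBKG was at -0.44 (SE 0.31, adjusted p = 0.994) and RELB at -0.47 (SE 0.27, adjusted p = 0.994) there, so the data do not separate the hairpins for these genes at this number of arrays. SKMM1 minus KMS12 called 0.062% of features and SKMM1 minus H929 0%, with no member among them. TNFAIP3 was at 1.14 (SE 0.27, adjusted p = 0.255) in SKMM1 minus H929.

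Change with day was asked of days 2 to 4 of the 8 myeloma courses. All 9 members had a slope above 0 when all arrays were used, from 0.05 for TNFAIP3 to 0.91 for IKBKG per day (log2), and 0% of features were called. Of all features 78.7% had a slope above 0, with a median of 0.26 per day against 0.36 over the members. Without wide arrays the slopes of IKBKG, NFKB2 and REL were 0.18, 0.23 and 0.19 per day and those of CD40, TNFAIP3 and TRAF1 were -0.18, -0.18 and -0.0019. Of the 8 wide myeloma arrays in these days, 4 were of day 2.

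The other genes of the pathway came from lists of kinases and adaptors, inhibitors and other subunits, receptors and ligands, and targets, 64 of whose 76 genes were measured. In myeloma 0 of 64 were called higher and 2 lower, the background for lower calls being 1.25%, with a median of 0.01, as over all features. TRAF3, which restrains the noncanonical branch, fell by 0.37 (SE 0.08, adjusted p = 0.0343, limma), and was below 0 on 19 of 21 myeloma arrays. MYD88, the adaptor of Toll-like receptors, fell by 0.25 (SE 0.06, adjusted p = 0.0419, limma), and was below 0 on 18 of 21. With 1 course left out at a time, the TRAF3 call held in 4 of 10 fits and the MYD88 call in 3 of 10, and the adjusted p was highest without KMS12 shCasp10-3 (0.242 and 0.29). In SKMM1 3 genes rose and 2 fell, against 3.89% and 1.08% of all features. CD70, a ligand of the tumour necrosis factor family, rose by 2.12 (adjusted p = 0.0246), with 1.00, 0.95 and 0.41 on days 2 to 4 of repeat 1. In repeat 3 it was at 3.88, 3.63 and 2.32 on days 2 to 4, and in repeat 2, on wide arrays, at -6.34, -6.72 and -3.34. The day 5 arrays were at -4.76 (labelled repeat 1, wide) and 4.60 (labelled repeat 2). Without repeat 3 its value was 0.78 (adjusted p = 0.603), without KMS12 shCasp10-3 the adjusted p was 0.0589, and with that repeat's sign turned it was -1.32. GADD45B, a stress-response target, rose by 0.69 (adjusted p = 0.0497), and OTULIN, which removes linear ubiquitin chains, by 0.47 (adjusted p = 0.0418). On days 2 to 4 of repeat 2, which are wide, both genes were below 0 on all 3 arrays, down to -7.87 for GADD45B and -3.52 for OTULIN. Each of these 2 calls held in 3 of 10 fits with a course left out, and without repeat 3 the adjusted p was 0.58 and 0.392. IRAK1, a kinase of the Toll-like receptor branch, fell by 0.87 (adjusted p = 0.0239) and MYD88 by 0.39 (adjusted p = 0.0488). IRAK1 was below 0 on 11 of 12 SKMM1 arrays, wide ones included, and the call was lost without repeat 1 (adjusted p = 0.138), repeat 3 (0.139) or KMS12 shCasp10-3 (0.0533). The MYD88 call in SKMM1 held in 2 of the 10 fits that each left out 1 course, those without either lymphoma line.

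Against the control hairpin 2 of the 64 genes fell, where 3.27% of all features did, again on 3 arrays of 1 course. BCL3, a nuclear protein that binds p50 and p52, fell by 1.12 (SE 0.26, adjusted p = 0.0248, limma) and TRAF3 by 0.87 (SE 0.20, adjusted p = 0.0252). BCL3 was at -0.76, -1.10, -1.24 and -1.01 on days 1 to 4. Against uninduced cells BCL3 was at -0.71 on day 1 of SKMM1 and at -0.82, -0.73 and -0.85 on days 2 to 4 of repeat 1. In repeat 3 it was -0.02, -0.43 and 2.27, the last on a wide array, and its fitted value in SKMM1 was -0.54 (adjusted p = 0.0849, limma). TRAF3 was at -0.79, -0.79, -0.72 and -1.10 on the same 4 days against the control hairpin. In lymphoma 1 of the 64 genes rose and 4 fell, against 4.28% and 5.89% of all features. The lymphoma fit holds 3 arrays of 2 courses, with 1 array of OCI-Ly7. MYC, CHUK and MAP3K7, the last 2 being kinases that act above IkB-alpha, fell by 1.63, 1.11 and 0.99 (adjusted p = 0.00968, 0.014 and 0.0086, limma), and IRAK1 by 0.77 (0.0412). These values came mainly from OCI-Ly19, where MYC was at -2.77 and -2.42 on days 3 and 4, while it was at -0.13 on day 4 of OCI-Ly7. On the wide day 3 array of OCI-Ly7, which this fit left out, MYC was at -1.04 and MAP3K7 at -0.73. IRAK1 was at -0.07 and CHUK at 0.54 on that array. Without OCI-Ly19 the values were -0.13 for MYC, -0.22 for CHUK, -0.24 for MAP3K7 and -0.32 for IRAK1. TNFSF13B, the ligand BAFF, rose by 2.89 (adjusted p = 0.0375), with 6.08 on day 4 of OCI-Ly7 and 0.45 and 1.27 on days 3 and 4 of OCI-Ly19, and was at 0.86 (adjusted p = 0.62) without OCI-Ly7.

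Likeness of pattern was measured by Pearson's r over the 28 arrays that were not wide, each centred on its median. The 3 of 4603 other named genes most like IKBKG were SUV39H1 (r = 0.75), NCL (r = 0.75) and PYGO2 (r = 0.74). Those most like NFKBIA were H1-2 (r = 0.69), TLR4 (r = 0.68) and CHMP1A (r = 0.68). Among the members themselves the highest r was 0.48, between NFKB1 and NFKB2, followed by 0.45 between NFKB2 and REL, and the lowest was -0.52, between IKBKG and TRAF1. The arrays share probes, lines and days, so these values are descriptions.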

How the data were processed

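Per the labels' protocols, total RNA was extracted with Trizol and 50 µg was labelled per dye. The authors deposited 1 log2 ratio of the 2 channels per probe and array; how the values were background-corrected and normalised, and the ratio's base and direction, was not given in the sources used here. Base 2 was read from the values, since on 14 of 40 arrays the 2 most frequent values lay exactly 1 apart. Spot intensities were not analysed here, and the number of arrays limits the precision. RNA of cells with an induced CASP10 hairpin was in Cy5 throughout, and any dye bias stays in the values. Gene symbols came from the platform's old annotation: 10169 probes had 1 symbol, 4 several and 5073 none. Probes of a gene were averaged, which gave 9681 features.

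Arrays that share a line, hairpin and repeat formed a course; 5 arrays of days 1 and 5 were placed by their run of database numbers (3 have no repeat number in their label and 2 have another one), which touches the all-days alternative alone. Biological repeats are stated for SKMM1 and H929, while days of a course may share a culture, so p-values measure the spread between these samples. Fits used limma 3.58.1 in R 4.3.3, with Benjamini-Hochberg adjustment at 0.05 and the myeloma lines weighted equally, on course means of days 2 to 4, and on single arrays with duplicateCorrelation (0.28 within a course). Scripts were tested on simulated data. The members and lists were chosen with earlier results of these data known. Every member, CASP10 and each other pathway gene past the threshold was named. Different days of 1 SKMM1 course correlated at 0.34 to 0.63 after centring by day. Different days of SKMM1 repeats 1 and 3 correlated at 0.13 to 0.44. Different days of 1 H929 course were at -0.15 to 0.43. With 2 H929 repeats centred by day, each repeat mirrors the other, so this range cannot be set against one between repeats. Python 3.11.15 and matplotlib 3.10.9 drew the figures.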

Additional observations from a re-analysis of the deposited data

Results flagged for a closer look

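Over the 8 myeloma courses, SKMM1 repeat 2 had the lowest REL mean, -4.55 on days 2 to 4, and lay far from the nearest other course relative to the range (gap over range 0.734). Its arrays of these days are all wide. Over the 7 courses without wide arrays, SKMM1 repeat 3 had the highest TNFAIP3 mean, 1.71, far from the others in the same sense (0.62). Of the 18 such sets of course means, 2 stood out; chance gives about 1 in 20.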

How the results depend on the processing

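With course means of all arrays 0 features were called in each comparison. Leaving the wide arrays out of the course means called 1 feature against the control hairpin and 0 elsewhere, and the fit of the other single arrays called 166 in myeloma, 482 in SKMM1, 1 in KMS12, 335 against the control hairpin, 984 in lymphoma, 6 in SKMM1 minus KMS12 and 1 in myeloma minus lymphoma. The alternatives that follow are of those single arrays. Centring on the median called 337 in myeloma, 789 in SKMM1, 2 in KMS12, 512 against the control hairpin, 0 in SKMM1 minus KMS12 and 11 in myeloma minus lymphoma. Turning the sign of SKMM1 repeat 3 called 0 in myeloma, SKMM1, KMS12, SKMM1 minus KMS12 and myeloma minus lymphoma, 4 against the control hairpin and 219 in lymphoma. It reversed CD70 (-1.32), GADD45B (-0.28), OTULIN (-0.0576), REL (-0.0384) and TNFAIP3 (-0.65) in SKMM1. The median of a gene's probes called 266 in myeloma, 756 in SKMM1 and 4 in myeloma minus lymphoma. Leaving out whole-number steps called 592 in myeloma, 1329 in SKMM1, 2 in KMS12, 907 against the control hairpin, 394 in SKMM1 minus KMS12 and 32 in myeloma minus lymphoma. Single probes called 355 in myeloma, 939 in SKMM1, 0 in KMS12, 688 against the control hairpin and 1838 in lymphoma. Probe medians, steps and single probes were added after seeing the data. With 1 course left out at a time, single probes called 48 (without SKMM1 repeat 3) to 2711 in SKMM1 and 437 to 1492 against the control hairpin.

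With 1 course left out at a time, the single arrays called 1 (without H929 shCasp10-2 repeat 1) to 497 in myeloma, 16 (without SKMM1 repeat 3) to 1741 in SKMM1, 0 to 17 in KMS12, 135 to 781 against the control hairpin, 440 to 1450 in lymphoma, 0 to 711 (without SKMM1 repeat 1) in SKMM1 minus H929, 0 to 1018 (also without SKMM1 repeat 1) in SKMM1 minus KMS12, 0 to 4 between the hairpins and 1 to 883 in myeloma minus lymphoma. Course means of all arrays called 0 to 26 in lymphoma and 0 to 82 in myeloma minus lymphoma, both highest without OCI-Ly19. Of the 9 members 9 had a myeloma mean below 0 with each course weighted equally, 3 without wide arrays, 4 with SKMM1 repeat 2 turned, and 7 (without SKMM1 repeat 2) to 9 with 1 course left out. With lines weighted equally, 5 were below 0 with SKMM1 repeat 2 turned.

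The change per day with a replicate block for the course called 0 features on days 2 to 4 and 1134 on all days (2 arrays of which are labelled with another repeat than the course they were placed in), where NFKB2 (0.55, adjusted p = 0.0365) and REL (0.66, adjusted p = 0.0348) were called (limma). Without wide arrays the block fit of days 2 to 4 called 0. The all-days fit was not run without wide arrays, so how far its calls depend on them was not tested. SKMM1 minus H929 with a replicate block called 0; the courses of the 2 lines share only a number. The cause of these dependences was not tested.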
